A study of Mus musculus with 5 samples.

Results

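The mRNAs of 10 growth and survival genes that are commonly described as eIF4E-sensitive were followed across an RNA immunoprecipitation experiment: Myc, Mycn, Mycl, Odc1, Vegfa, Hif1a, Mcl1, Bcl2l1, Birc5 and Xiap. They were chosen by gene name, and all 10 were found among the 49875 gene IDs of the table, each with 1 entry. The samples were neocortices of wild-type mouse embryos at E13.5, when cortical progenitors produce neurons, dissociated and lysed so that a cytoplasmic supernatant remained. There were 3 groups. The Input group (n = 2) was that supernatant itself, the eIF4E group (n = 2) was RNA precipitated from it with an antibody against eIF4E, and the IgG group was a lone library (n = 1) precipitated with rabbit control immunoglobulin. All samples were labelled wild type, and the labels name no treatment or transgene. The labels call the replicates biological but do not say which embryos or litters each came from, so the p-values reflect only how far these libraries spread, which may be technical.

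eIF4E is the protein that binds the 5′ cap of an mRNA and brings it to the scaffold eIF4G and the helicase eIF4A, which open the leader for the scanning ribosome. It is held back by the 4E-binding proteins, which mTORC1 phosphorylates and releases. A set of mRNAs for cell growth, angiogenesis and survival is known from cell culture and tumours to gain more translation than others when eIF4E is abundant, and long or structured leaders are the usual description of that set. The members studied here cover transcription factors (the 3 MYC paralogs and Hif1a), a biosynthetic enzyme (Odc1), a secreted ligand (Vegfa) and inhibitors of apoptosis of the BCL2 and IAP families (Mcl1, Bcl2l1, Birc5 and Xiap).

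eIF4E meets an mRNA at its capped end, so the bases around the annotated start of transcription are shown for the members that the RefSeq start table holds (9 of 10, build GRCm38.p6). The most upstream listed start was taken. Each line reads 5′ to 3′ on the gene's own strand, with 10 bases before the start in lower case and the 20 bases from the start in capitals.
Hif1a: gcctccgctcAGGTGAGGCGGGCCCGCGGG
Xiap: tgcttgagtcGGGGGCGGGGACTGAGAAGT
Odc1: cctcccccgcGCCTCCCGGCCGGAACCGAT
Bcl2l1: gcgcactcctTTTGCGTCTCGGGCTCGCGC
Mycl: gatataaagcAGTCGGGAAACAATGCGCCT
Mycn: aagcgcagccAGTGACAGTCATCTGTCTGG
Mcl1: ccccttttacGGGAAGTCCTCGCCTGCGTC
Birc5: ccagaaggcaGCGGGCGAGGGCGTGGGGCC
Vegfa: accggtgagaAGCGCAGAGGCTTGGGGCAG

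The windows lie at chr12:73907857-73907886 (plus strand, Hif1a), chrX:42067826-42067855 (plus, Xiap), chr12:17544863-17544892 (plus, Odc1), chr2:152831709-152831738 (minus, Bcl2l1) and chr4:122995921-122995950 (plus, Mycl). Those of the remaining genes lie at chr12:12941817-12941846 (minus, Mycn), chr3:95658711-95658740 (plus, Mcl1), chr11:117849227-117849256 (plus, Birc5) and chr17:46032358-46032387 (minus, Vegfa). The mark of a terminal oligopyrimidine mRNA, a C at the start followed by 4 pyrimidines (read on the sense strand only), was in 0 of the 9 windows. It was in 2.37% of the 9628 tested genes with a window.

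The bases at the listed starts set a pair of members apart. Over the 50 genomic bases from the start, Hif1a and Birc5 both had 84% G and C, against a median of 66% over the 9628 genes. RNAfold gave these 50 bases a minimum free energy of −30.9 kcal/mol in Hif1a and −28.3 kcal/mol in Birc5, against a median of −14.8 kcal/mol. Hif1a thus lay at percentile 0.3 and Birc5 at percentile 1.1 of the predicted energies, where low means more stable. Vegfa (−21.2 kcal/mol) and Bcl2l1 (−19.5 kcal/mol) followed, and the remaining 5 lay between −16.7 (Odc1) and −15.3 kcal/mol (Mycl and Mcl1). An ATG stood within the 50 bases in 4 of the 9 members (Mycn, Mycl, Birc5 and Xiap), against 30.7% of all genes with a window. These are genomic bases, so a window can run past a short first exon, and Bcl2l1 and Xiap have 3 listed starts each. RefSeq's gene bounds reach further upstream of the start used by 8223 bases for Xiap, 6543 for Hif1a, 2075 for Bcl2l1 and 1777 for Mcl1, so these windows need not be the 5′ end of every transcript.

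The table gives 1 abundance per gene and library, in units corrected for gene length (TPM or FPKM from RSEM), so levels can be compared between genes within a library. Of the 12769 genes tested, the lone IgG library listed 2651 at 0, against 56 to 84 in each of the other 4 libraries. Markers of the labelled tissue were present: 9 of 9 radial glia, 4 of 4 intermediate progenitor and 6 of 6 cortical neuron genes reached 1 in both Input libraries. So did markers of other cells: 6 of 7 erythroid, 6 of 7 microglia, 5 of 7 endothelial and mural, 5 of 6 meninges and 3 of 5 interneuron genes. Differences below are log2 differences of abundance + 1, tested with limma over all 12769 genes, and folds are on that same scale unless said otherwise. With that scale all 10 members passed the filter of 1 in at least 2 libraries, but Vegfa passed through the Input libraries only, and Xiap through the eIF4E and IgG libraries only.

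The levels of the members spanned a wide range. In Input replicate 1 the order ran from Birc5 (528.55), Bcl2l1 (322.37) and Mycn (172.37), through Mycl (42.6), Odc1 (25.81) and Myc (21.28), to Mcl1 (10.97), Hif1a (10.34), Vegfa (1.96) and Xiap (0.53). Input replicate 2 kept this order except that Myc (22.31) lay above Odc1 (21.15), so this pair did not differ beyond its spread. Mcl1 and Hif1a were also close, at 10.97 and 10.8 against 10.34 and 10.28. In the eIF4E libraries Birc5 still led Bcl2l1, but Hif1a had moved up past Mcl1 and Myc to stand beside Mycl and Odc1. In the IgG library Bcl2l1 (263.28) and Birc5 (247.01) were followed by Mycn (91.12) and Hif1a (74).

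**Figure D1:**
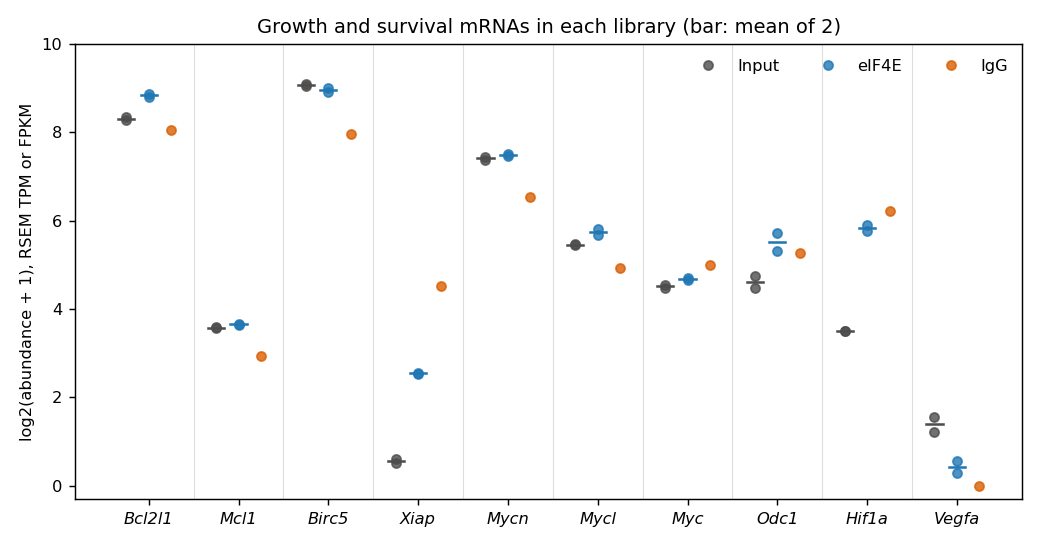
The y axis is log2(abundance + 1), each point is 1 library (Input, eIF4E or IgG) and each short bar is the mean of 2 libraries. Hif1a and Xiap lie far above Input in both precipitates, while Birc5, Mycn, Mycl, Mcl1, Bcl2l1 and Vegfa have their lowest value in the IgG library.

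Against Input, the members did not move as one set. With limma, 5 of the 10 were higher in eIF4E (Hif1a, Xiap, Odc1, Bcl2l1 and Mycl), beside 43.3% of all tested genes, and 1 was lower (Vegfa), beside 30.6%. Of these, Xiap and Vegfa entered the test only through libraries where they were high, so their calls are given as a description. Myc, Mycn, Mcl1 and Birc5 did not pass the test. The eIF4E libraries both lay above both Input libraries for 8 members, beside 50.3% of all genes, and both below for 2 (Vegfa and Birc5), beside 37.6%. The median difference of the 10 was log2 0.23, against 0.16 over all tested genes. The share called higher and the median were thus near those of the table as a whole. Over all genes the shares called higher and lower moved to 34.6% and 41.2% with median-of-ratios scaling, 33.7% and 40.3% with quantile normalization and 50.9% and 21.5% with the same total for every library.

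**Figure D2:**
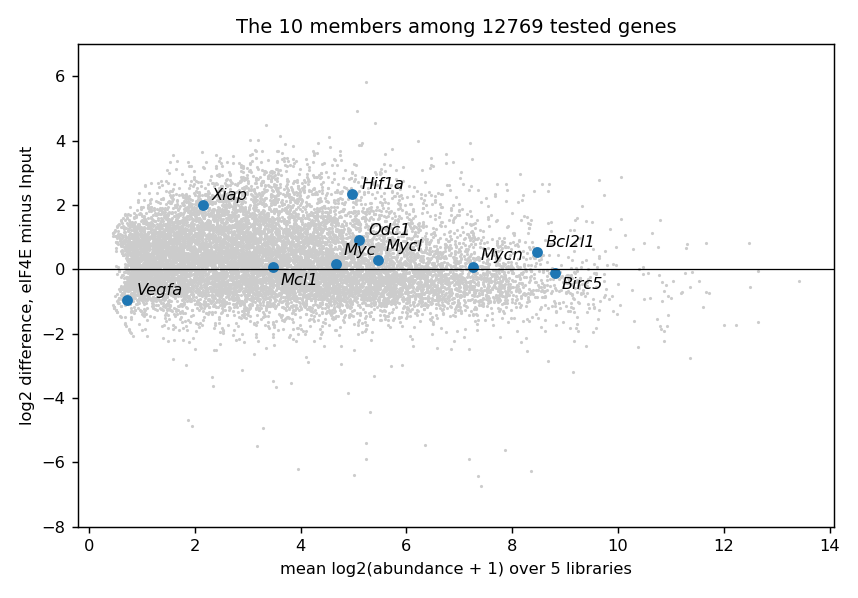
The x axis is mean log2(abundance + 1) over the 5 libraries and the y axis the log2 difference of eIF4E minus Input, with 1 grey point per tested gene and the 10 members in blue. Hif1a (2.33) and Xiap (1.98) lie near the upper edge, Vegfa (−0.96) lies low among weakly expressed genes, and most others lie in the middle of the cloud.

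Hif1a encodes the oxygen-regulated subunit of hypoxia-inducible factor. Its abundance was 10.34 and 10.28 in Input, 53.51 and 58.71 in eIF4E, and 74 in IgG. Both eIF4E libraries were above both Input libraries, and the IgG library was above all 4. The rise over Input was 5.04-fold (log2 2.33, SE 0.07, limma adjusted p = 6.58e-05), at percentile 96.12 of all tested genes. Against IgG the same mRNA was lower in eIF4E (log2 −0.39, SE 0.09, adjusted p = 0.0101). The IgG library exceeded Input by 6.63-fold (adjusted p = 1.52e-05).

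Xiap, the X-linked inhibitor of caspases, had the same order of groups at a lower level. It measured 0.53 and 0.43 in Input, 4.81 and 4.9 in eIF4E and 21.95 in IgG, with no overlap between the groups. The rise over Input was 3.96-fold (log2 1.98, SE 0.10, adjusted p = 1.42e-04), and it becomes log2 3.10 with a pseudocount of 0.1, because the Input values lie below 1. On the scale of abundance + 1, Xiap in eIF4E was at 0.255 of IgG (log2 −1.97, SE 0.12), and at 0.221 in plain abundance. Over Input, Xiap in IgG was 15.5-fold higher on that scale and 45.7-fold higher in plain abundance. For both Hif1a and Xiap the larger rise over Input was therefore in the control precipitate, as far as 1 IgG library shows.

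Odc1, ornithine decarboxylase, makes putrescine in the committed step of polyamine synthesis. It was 25.81 and 21.15 in Input, 38.96 and 51.59 in eIF4E and 37.54 in IgG. The eIF4E libraries lay above both Input libraries, and the IgG value was just below the lower of them. The rise over Input was 1.88-fold (log2 0.91, SE 0.17, adjusted p = 0.007). It was not called without Input replicate 2 (log2 0.77, adjusted p = 0.0553), and Odc1 was the noisiest of the abundant members, its eIF4E libraries differing by 1.32-fold. Against IgG it did not pass (1.19-fold, 95% interval 0.815 to 1.74, adjusted p = 0.305).

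Bcl2l1, which encodes the anti-apoptotic BCL-xL along with shorter isoforms, was called above both controls. It was 322.37 and 310.15 in Input, 443.41 and 467.7 in eIF4E and 263.28 in IgG. Both eIF4E libraries exceeded the other 3. The difference was 1.44-fold over Input (log2 0.52, SE 0.05, adjusted p = 6.85e-04) and 1.73-fold over IgG (log2 0.79, SE 0.06, adjusted p = 2.38e-04). The call against Input held under every alternative run, with log2 values from 0.20 to 0.81, whereas the one against IgG was lost under quantile normalization (log2 0.10, adjusted p = 0.224).

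Mcl1, the short-lived BCL2 relative, stood at 10.97 and 10.8 in Input, 11.59 and 11.5 in eIF4E and 6.66 in IgG. The eIF4E libraries were above the Input libraries by a margin that did not pass (1.06-fold, 95% interval 0.921 to 1.21, adjusted p = 0.384). Its sign depends on scaling, since quantile normalization gave log2 −0.35 (adjusted p = 0.0163) and the same total for every library gave 0.30 (adjusted p = 0.0211). Against IgG it was 1.64-fold higher (log2 0.71, SE 0.09, adjusted p = 0.00148). The ratio of Bcl2l1 to Mcl1 within a library, which no scaling factor can alter, was 29.4 and 28.7 in Input, 38.3 and 40.7 in eIF4E and 39.5 in IgG. Relative to Mcl1, Bcl2l1 was thus higher in all 3 precipitates than in either Input library.

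Birc5 (survivin), an IAP-family protein that also serves the chromosomal passenger complex in mitosis, was the most abundant member in Input. It measured 528.55 and 544.16 in Input, 478.75 and 513.28 in eIF4E and 247.01 in IgG. The eIF4E libraries lay below both Input libraries, but the difference did not pass (0.924-fold, 95% interval 0.842 to 1.01, adjusted p = 0.101). Without eIF4E replicate 2 it was called lower (log2 −0.16, adjusted p = 0.0397), as it was under median-of-ratios scaling (log2 −0.44), and quantile normalization turned it (log2 0.27, adjusted p = 0.0093). Over IgG it was 2.00-fold higher (log2 1.00, SE 0.06, adjusted p = 1.34e-04). Birc5 and Hif1a, whose start windows had the lowest predicted energies of the 9, therefore lay at percentiles 39.65 and 96.12 of the difference from Input.

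The MYC paralogs, transcription factors that pair with MAX and drive growth genes, kept close to Input. Mycn, the paralog best known from neural progenitors, led at 172.37 and 165.54 in Input, 175.09 and 180.67 in eIF4E and 91.12 in IgG. Its difference from Input did not pass (1.05-fold, 95% interval 0.965 to 1.15, adjusted p = 0.216) and turned under median-of-ratios scaling (log2 −0.25, adjusted p = 0.00968), while it passed as higher under quantile normalization (log2 0.20) and the same total (log2 0.31). Against IgG it was 1.94-fold higher (log2 0.96, SE 0.06, adjusted p = 1.25e-04).

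Mycl was 42.6 and 43.08 in Input, 54.99 and 49.77 in eIF4E and 29.29 in IgG. The eIF4E libraries exceeded the other 3. It was called higher than Input (1.22-fold, log2 0.28, SE 0.07, adjusted p = 0.0181) and than IgG (1.76-fold, log2 0.82, SE 0.09, adjusted p = 7.18e-04). Leaving out Input replicate 1 or 2 took the call against Input away (adjusted p = 0.0988 and 0.0895), and the difference turned under median-of-ratios scaling (log2 −0.036, adjusted p = 0.651).

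Myc differed from its paralogs in the IgG library. It measured 21.28 and 22.31 in Input, 24.33 and 25.21 in eIF4E and 30.78 in IgG, so that its highest value was in the control precipitate. The difference from Input did not pass (1.13-fold, 95% interval 1.005 to 1.27, adjusted p = 0.0589), although it passed with the same total for every library (log2 0.41, adjusted p = 0.00443). Against IgG it was lower (log2 −0.30, SE 0.08, adjusted p = 0.0185), a call lost without eIF4E replicate 1 (adjusted p = 0.0546). The ratio of Mycn to Myc within a library was 8.10 and 7.42 in Input, 7.20 and 7.17 in eIF4E and 2.96 in IgG. The balance of Mycn and Myc in eIF4E was thus close to that in Input and unlike that in the lone IgG library. The ratio of Mycl to Myc was also lowest in IgG (0.952, against 2.00 and 1.93 in Input and 2.26 and 1.97 in eIF4E). For Mycn to Mycl both eIF4E libraries (3.18 and 3.63) lay between Input (4.05 and 3.84) and IgG (3.11).

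Vegfa, the main angiogenic ligand, was barely detected. It was listed at 1.96 and 1.31 in Input, 0.22 and 0.48 in eIF4E and 0 in IgG. Both eIF4E libraries were below both Input libraries, with log2 −0.96 (SE 0.19, adjusted p = 0.00862). Only genes high in Input could enter the test with values this low elsewhere, and the size of the fall depends on the pseudocount (log2 −1.98 with 0.1). Markers of endothelial and mural cells, the vessel cells on which VEGF acts, summed over 7 genes to 125.45 and 133.29 in Input, 57.27 and 57.36 in eIF4E and 20.58 in IgG, where Cldn5, Pdgfrb and Tek were listed at 0. Summed erythroid markers fell as well, from 14730.5 and 16066.6 in Input to 5224.47 and 3967.06 in eIF4E. Microglia markers fell from 50.15 and 59.01 to 24.94 and 20.36, and meninges markers from 134.14 and 115.18 to 95.28 and 91.23. Radial glia markers were also lower (1660.19 and 1693.55 in Input, 1467.87 and 1344.26 in eIF4E). So, slightly, were those of cortical neurons (1311.1 and 1337.96, against 1293.17 and 1248.25). Intermediate progenitor markers rose from 272.29 and 266.24 to 470.73 and 483.28, and interneuron markers from 30.61 and 33.1 to 37.04 and 34.91. The part of vessel cells in the Vegfa result was not tested.

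The comparison with the control precipitate rests on 1 IgG library, whose spread is not known and is taken in the fit to be that of the other groups. Its calls have no replicate check of their own. With limma, 5 of 10 were higher in eIF4E than in IgG (Bcl2l1, Mycl, Mycn, Mcl1 and Birc5), beside 53.1% of all genes, and 3 were lower (Myc, Hif1a and Xiap), beside 30.6% (36.1% and 37.9% with quantile normalization). Odc1 and Vegfa did not pass. In IgG against Input, 4 were higher (Xiap, Hif1a, Odc1 and Myc), beside 37.8%, and 6 lower (Birc5, Mycn, Mcl1, Mycl, Bcl2l1 and Vegfa), beside 50.3% (39.5% and 40.5% with quantile normalization, 45.7% and 42.4% with the same total). The fall of Bcl2l1 in IgG turned under quantile normalization (log2 0.70) and under the same total (log2 0.33), and was not called without Input replicate 1 (adjusted p = 0.0752). The rise of Odc1 in IgG was not called under 5 of 11 alternatives, among them the omission of Input replicate 1 (adjusted p = 0.0549) or 2 (0.134). These comparisons share libraries, so their values are given side by side and do not support each other. Bcl2l1 and Mycl were called above both controls, as were 19.8% of all genes, and Hif1a and Xiap were above Input and below IgG, as were 16.8%. Relative abundance in a precipitate does not give the amount of RNA recovered.

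**Figure D3:**
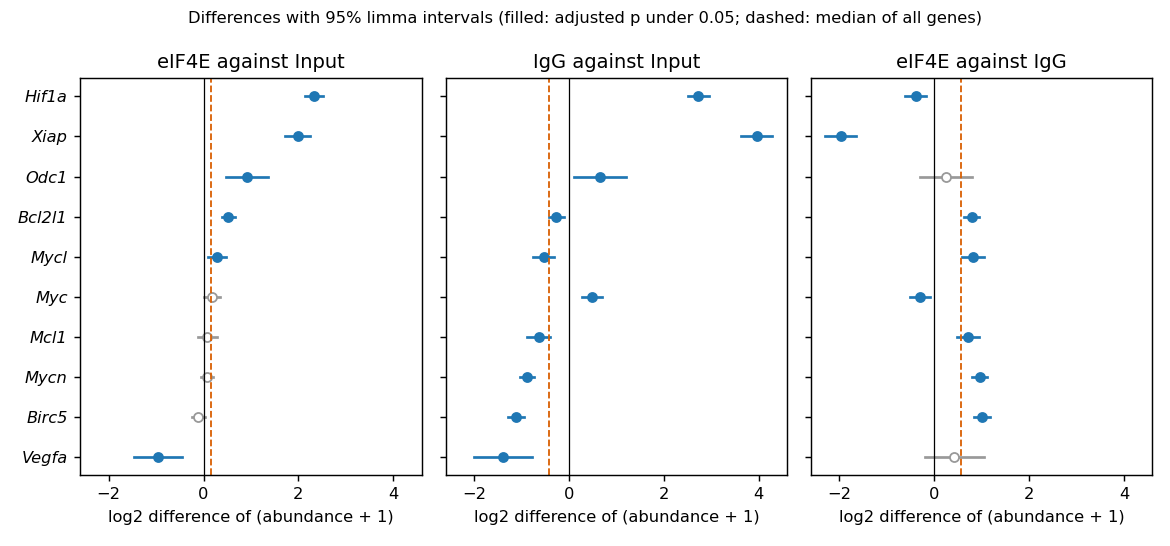
Each panel shows 1 comparison, with the log2 difference of abundance + 1 on the x axis, points for the limma estimate, lines for its 95% interval and a dashed line at the median of all tested genes. Hif1a and Xiap lie at the top in eIF4E against Input and further right in IgG against Input, and both lie left of 0 in eIF4E against IgG.

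The calls of Hif1a and Bcl2l1 against Input held under every alternative run, and so did those of Xiap and Vegfa (Vegfa has no value among genes above 0 in all 5 libraries). Xiap and Vegfa entered the test through the libraries where they were high, so their calls are given as a description, and without a filter the adjusted p was 0.00185 for Xiap and 0.0342 for Vegfa. Scaling moved the median of all genes from log2 0.16 to −0.114 under median-of-ratios scaling, to −0.115 under quantile normalization and to 0.36 with the same total. The differences of Myc, Mycn, Mcl1, Birc5 and Mycl from Input each changed sign under at least 1 of the 3 scalings.

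**Figure D4:**
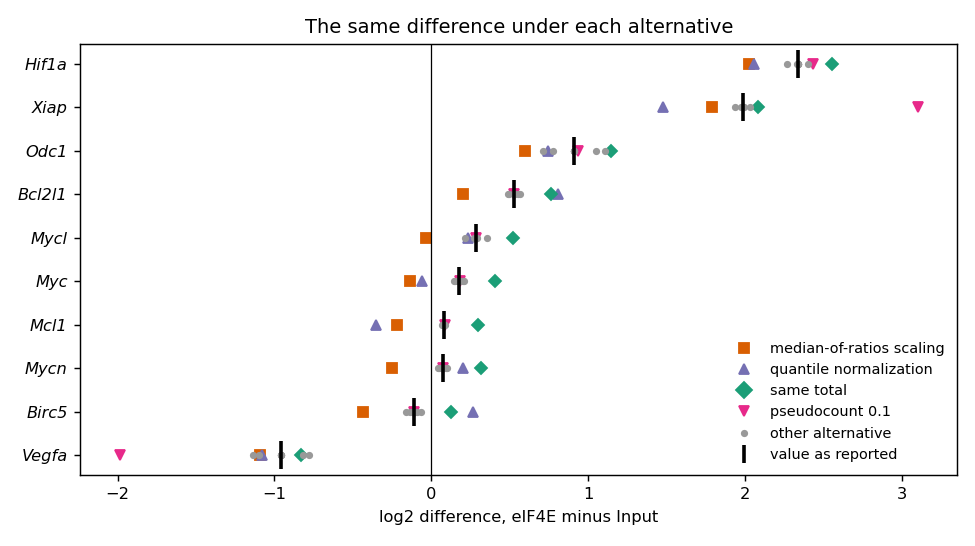
The x axis is the log2 difference of eIF4E minus Input, with a black bar for the value as reported and a symbol for each alternative. Hif1a, Xiap, Odc1 and Bcl2l1 stay right of 0 and Vegfa left of it, whereas the symbols of Mycl, Myc, Mcl1, Mycn and Birc5 fall on both sides.

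Genes with related roles also went both ways. The 24 named from these lists were chosen for the highest and lowest differences from Input past the threshold. All 24 kept their direction against Input under the 3 scalings. Genes chosen for large differences seldom turn, so this is no check of the lists as a whole. The counts below stand beside 43.3% of all tested genes called higher and 30.6% lower, with a median of log2 0.16. In the MYC network 9 of 21 tested genes (42.9%) were higher than Input and 9 (42.9%) lower (median log2 0.13), with 5 lower after scaling to the same total. The ubiquitin ligases Mycbp2 (9.05-fold) and Fbxw7, which marks MYC for degradation (5.50-fold), rose furthest, and Mxd3 (0.560 of Input) and Max, the obligate MYC partner (0.511), fell furthest. Max measured 49 and 60.92 in Input, 27.8 and 27.07 in eIF4E and 24.36 in IgG. Mycbp2 and Fbxw7, like Hif1a and Xiap, had higher values in IgG (26.16 and 50.36) than in eIF4E (means of 19.5 and 28.7).

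Polyamine genes had 5 of 17 higher (29.4%, beside 43.3% of all genes) and 9 lower (52.9%, beside 30.6%), with a median of log2 −0.16. Eif5a2 and Atp13a3, counted among the 5, entered the test only through libraries where they were high, so their calls are given as a description. Amd1, which makes the aminopropyl donor, rose 5.98-fold and the antizyme inhibitor Azin1, which protects ornithine decarboxylase, rose 4.03-fold, both more than Odc1 itself. Spermidine synthase Srm fell to 0.486 and spermine oxidase Smox to 0.478. Azin1 measured 52.73 and 59.47 in Input, 216.21 and 241.7 in eIF4E and 21.66 in IgG, so both eIF4E libraries lay far above both controls.

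Of the hypoxia and VEGF genes, 7 of 16 were higher (43.8%) and 5 lower (31.2%), shares close to the 43.3% and 30.6% of all genes (median log2 0.01). Under quantile normalization 4 were higher and 8 lower, and under median-of-ratios scaling 8 were lower. Eloc, a subunit of the VHL ubiquitin ligase that degrades HIF-1α, rose 3.84-fold and the VEGF co-receptor Nrp1 3.20-fold. The ligand Vegfb fell to 0.621 and the receptor Flt1 to 0.547. Flt1 is an endothelial gene, listed at 2.08 and 2.1 in Input, 0.75 and 0.63 in eIF4E and 0 in IgG. It entered the test through the Input libraries only, where it was high, so its fall is given as a description. Kdr, a further VEGF receptor in the list, was 3.11 and 3.21 in Input, 3.4 and 3.19 in eIF4E and 0.06 in IgG. Its difference from Input did not pass (log2 0.05, limma adjusted p = 0.712). The summed endothelial markers above were also lowest in IgG.

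BCL2-family genes outside the members had 4 of 11 higher (36.4%, beside 43.3% of all genes) and 6 lower (54.5%, beside 30.6%), with a median of log2 −0.52. Bcl2 itself rose 2.56-fold from a low level (0.27 and 0.28 in Input), and the BH3-only gene Bid rose 2.00-fold. Bcl2 entered the test through the eIF4E and IgG libraries only, where it was high, so its rise is given as a description. The BH3-only genes Bbc3 (PUMA) and Bik fell to 0.433 and 0.642. Without a filter on low values up to 17 listed genes can enter, and those added do not reach 1 in at least 2 libraries. There 8 were called higher, beside 27.7% of all genes. Under quantile normalization 2 were, beside 33.7%, and the count also fell without Input replicate 1.

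Among IAP, caspase and passenger-complex genes 7 of 15 were higher (46.7%, beside 43.3% of all genes) and 6 lower (40%, beside 30.6%), with a median of log2 0.04. Apaf1, counted among the 7, entered the test through the eIF4E libraries only, where it was high, so its call is given as a description. With the same total 2 were lower, beside 21.5% of all genes. The count also fell when either Input replicate was left out, as did the share over all genes. Birc2 (cIAP1) rose 5.84-fold and the initiator caspase Casp8 2.82-fold. Diablo, which antagonizes IAPs, fell to 0.682 and Incenp, a passenger-complex partner of survivin, to 0.466. Birc2 measured 5.78 and 4.69 in Input, 33.95 and 36.64 in eIF4E and 24.16 in IgG, so that unlike Xiap its highest values were in eIF4E.

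Further mRNAs described as eIF4E-sensitive had 9 of 18 higher (50%) and 6 lower (33.3%), near the 43.3% and 30.6% of all genes (median log2 0.21). The 9 include Bcl2, which entered the test as described above. Nbn, of the DNA-break sensor, rose 7.16-fold and the kinase Tlk1 5.06-fold, and both were near 0 in IgG (0.04 and 0.06). Cyclin D3 (Ccnd3) fell to 0.491 and ferritin heavy chain (Fth1), whose leader carries an iron-responsive element, to 0.294.

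**Figure D5:**
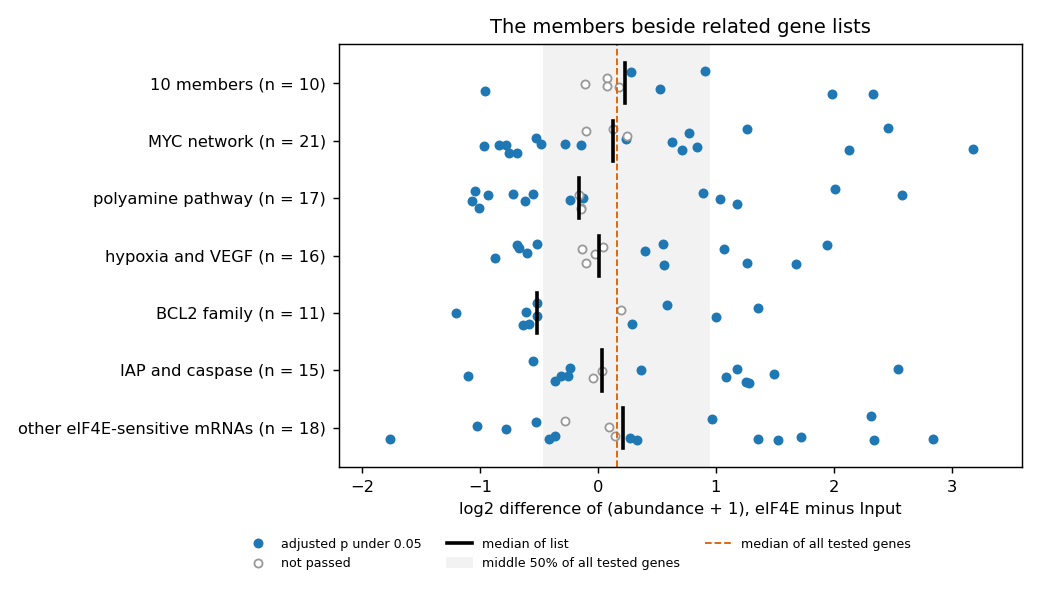
The x axis is the log2 difference of eIF4E minus Input, each point is 1 gene (filled where the limma adjusted p was under 0.05), black bars are list medians and the shaded band holds the middle 50% of all tested genes. The lists and the 10 members all spread to both sides of 0, with medians from −0.52 (BCL2 family) to 0.23 (the members).

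Gene span also differed among the members. The span from RefSeq was 46.2 kb for Hif1a (chromosome 12, 73901324 to 73947554), 50.1 kb for Xiap (chromosome X, 42059613 to 42109664) and 75.1 kb for Bcl2l1 (chromosome 2, 152758732 to 152833803). The other 7 spanned less than the median of 23.1 kb over tested genes: 5.0 kb for Myc (chromosome 15), 5.7 kb for Mycn (chromosome 12), 6.2 kb for Mcl1 (chromosome 3), 6.5 kb for Birc5 (chromosome 11), 6.7 kb for Odc1 (chromosome 12), 6.9 kb for Mycl (chromosome 4) and 15.4 kb for Vegfa (chromosome 17). Across 9628 genes, which are not independent replicates, span correlated with the difference of eIF4E from Input at Spearman's rho 0.405 and with that of IgG from Input at 0.395. With eIF4E minus IgG it correlated at −0.264. G and C content of the 50 bases from the start gave 0.007, 0.056 and −0.066 in the same order, and predicted folding energy −0.016, −0.042 and 0.042. These are descriptions over genes measured in the same libraries.

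For each member, the genes with the most similar pattern over the 5 libraries were found by Euclidean distance of centred log2 values, among tested genes above the median level and with a regular name. Mcl1 was followed most closely by Eif4h (distance 0.0097), an initiation factor that assists eIF4A, at 673.78 and 666.31 in Input, 706.11 and 706.88 in eIF4E and 432.35 in IgG. Hif1a was most like Tcf4 (0.105) and Tent2 (0.108), and Xiap most like Ctdspl2 (0.106) and Gli3 (0.136). Mycn was most like Rmdn3 (0.057), Mycl most like Prkcz (0.0579), Bcl2l1 most like Daxx (0.0499) and Birc5 most like Ubox5 (0.0512). Odc1 was most like Fbxo8 (0.162) and Vegfa most like Slc12a7 (0.201), though genes at the low levels of Vegfa and Xiap were not searched.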

How the data were processed

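The authors' deposited table holds 1 abundance column per library. STAR 2.7.9a and RSEM 1.3.3 were used with mm10, per the submitters' processing notes. The deposited values are FPKM or TPM, which the header does not say, and these differ by 1 factor per library. Annotation and row filters: not given in the sources used here. Libraries were made by Smart-seq2 per the labels' protocols, which primes on poly(A) and marks neither strand nor molecules. RSEM's estimated reads need not be whole and values carry 2 decimals, so read depth was not recovered and no counting intervals are given. Column totals ran from 560076 to 848550. Of 50161 rows, 286 repeated a gene ID and were dropped.

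Genes of at least 1 in at least 2 libraries (12769) were fitted as log2(value + 1), which understates changes of low genes, with limma 3.58.1 in R 4.3.3 (3 groups, 5 libraries, eBayes with trend, two-sided, adjusted p under 0.05 by Benjamini-Hochberg over all genes). There were 2 residual degrees of freedom, and IgG, with 1 library, takes its spread from the other groups. Folding used RNAfold 2.7.2. The members, lists and tests were chosen with earlier results of these data known. Named list genes are the 2 highest and 2 lowest differences from Input past the threshold in each list. For likeness, up to 2 nearest genes above the median level and with a regular name were taken, and some are not reported here. Alternatives covered pseudocount, filter, scaling, trend, each replicate left out and a replicate block.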

Additional observations from a re-analysis of the deposited data

How the results depend on the processing

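Over the alternatives run, 112 of 129 values of single members kept their direction and their side of the threshold in eIF4E against Input, 104 of 109 in eIF4E against IgG and 96 of 109 in IgG against Input. The cause of the changes was not tested. Alternatives of filter, trend and replicate block leave the estimate of a member as it was, so only its adjusted p could move there. Against Input, the 5 members called higher became 8 with the same total for every library, where the share over all genes rose from 43.3% to 50.9%. Leaving out 1 library turned the direction of no member against Input, though the calls of Mycl, Odc1 and Birc5 changed. The 1 called lower became 3 with median-of-ratios scaling and 2 with quantile normalization, where 41.2% and 40.3% of all genes were lower in place of 30.6%, and 0 among genes above 0 in all 5 libraries, where Vegfa cannot enter. In IgG against Input the 4 higher became 2 with median-of-ratios scaling, where 34% of all genes were higher in place of 37.8%. The 6 lower became 3 with quantile normalization and 3 with the same total. There 40.5% and 42.4% of all genes were lower in place of 50.3%. Against Input, directions turned for Mycn (log2 −0.25), Mcl1 (−0.22), Myc (−0.13) and Mycl (−0.036) with median-of-ratios scaling, for Mcl1 (−0.35), Myc (−0.060) and Birc5 (0.27) with quantile normalization, and for Birc5 (0.13) with the same total. Against IgG, Vegfa turned with quantile normalization (−0.73) and Odc1 with the same total (−0.092). In IgG against Input, Bcl2l1 turned with quantile normalization (0.70) and the same total (0.33), and Mycl with the same total (0.041). Of 420 counts in the related lists, 17 moved by over 1.5 times. Replicate numbers do not pair the samples by any label, and deviations of same-numbered eIF4E and Input libraries correlated at 0.0236. With a replicate block, 5 members were higher and 1 lower, the same counts as without it. Read depth is not known, and Vegfa and Xiap lay below 2 in Input, where the pseudocount changes the size of a difference.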
